A study of Homo sapiens with 12 samples.

Results

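Counts of 60 cell cycle and mitosis genes were described in the MDA-MB-231-ERβ cell line, a triple negative breast cancer (TNBC) line that carries full length ERβ (ESR2) under the control of doxycycline (dox). The 60 genes were listed by name and span the RB and E2F factors, the cyclins and their kinases and inhibitors, replication origin licensing, DNA synthesis, and the kinases, checkpoint proteins and motors of mitosis. A gene was taken where the gene name of the count table equals the listed name. All 60 were found among 12451 entries, and all 60 were among the 11303 genes tested, which reached 1 RPKM (reads per kilobase of exon per M counts) in at least 3 libraries. CENPE, PLK4 and CCNE2 passed this filter only through the vehicle libraries, with 0, 0 and 1 library outside vehicle at that level, so that the filter favoured a fall of these 3 relative to vehicle. The list was not drawn from measured values, but it was proposed with earlier results of these data known.

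The study asked how ERβ and its ligand estradiol (E2) bear on the response of TNBC cells to the cytokine TNFα. Cells were grown with dox, so that ERβ was induced in every group, in medium with charcoal-stripped serum, and RNA was sequenced as stranded mRNA libraries from triplicate dishes. The 4 groups of 3 libraries were vehicle (ethanol, 5 days), TNFα (vehicle for 5 days with 20 ng/ml TNFα for the final 3 h), E2 (1 nM for 5 days) and E2+ TNFα (1 nM E2 for 5 days with 20 ng/ml TNFα for the final 3 h). The sample labels of the E2+ TNFα group do not name dox, whereas the shared treatment description does. All groups come from a single engineered line, and ERβ there follows the inducible promoter and not the gene's own. No library without dox is compared here, so a change by E2 was not set against cells without the induced receptor.

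Progression through the cell cycle is governed by cyclins, which switch on cyclin-dependent kinases (CDKs), and by inhibitors that hold those kinases back. In G1, cyclin D with CDK4 or CDK6 and cyclin E with CDK2 phosphorylate RB, which releases E2F factors to switch on genes for origin licensing and DNA synthesis. Genes for mitosis are switched on later, largely through the MuvB complex with MYBL2 and FOXM1, and proliferating tumor cells are known for high levels of both sets.

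The promoters of a few members are shown because short promoter elements are known to time many genes of the cycle, and these windows show which of them are present. Promoter windows of 300 bases around the start were available from RefSeq on GRCh38.p14 for 48 of the 60 members, in 69 windows since some genes have several starts. Each window was searched on both strands for an E2F motif (TTTCCCGC, TTTCGCGC, TTTGCCGC or TTTGGCGC), the cell cycle homology region (CHR, TTTGAA) and the CCAAT box (CCAAT). The E2F motif was in 23.2% of the members' windows and in 3.31% of all 35116 windows (5.05% of those of genes tested). Among the 22 windows of RB and E2F factors, origin licensing and DNA synthesis genes it was in 54.5%. The CHR was in 26.1% of the members' windows against 15.2% of all windows, and in 52.4% of the 21 windows of mitotic members. The CCAAT box was in 65.2% of the members' windows against 34.6% of all. Windows of 7 members follow, 5′ to 3′ on the gene's own strand, with letters that match a motif on either strand in capitals. Those of E2F7 and MCM2 were added after their values had been seen.
E2F1: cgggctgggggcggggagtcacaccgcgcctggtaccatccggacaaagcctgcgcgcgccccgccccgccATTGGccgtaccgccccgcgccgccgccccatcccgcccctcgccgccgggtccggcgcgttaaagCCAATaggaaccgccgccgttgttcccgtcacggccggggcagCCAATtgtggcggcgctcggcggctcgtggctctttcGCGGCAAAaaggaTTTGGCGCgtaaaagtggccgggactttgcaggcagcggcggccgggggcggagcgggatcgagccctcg
E2F7: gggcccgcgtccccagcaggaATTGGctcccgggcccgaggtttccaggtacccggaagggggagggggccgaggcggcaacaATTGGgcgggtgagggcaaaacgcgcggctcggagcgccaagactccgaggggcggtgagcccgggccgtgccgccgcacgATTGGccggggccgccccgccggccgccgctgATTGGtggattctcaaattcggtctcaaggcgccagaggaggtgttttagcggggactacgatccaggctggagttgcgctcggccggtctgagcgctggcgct
MCM2: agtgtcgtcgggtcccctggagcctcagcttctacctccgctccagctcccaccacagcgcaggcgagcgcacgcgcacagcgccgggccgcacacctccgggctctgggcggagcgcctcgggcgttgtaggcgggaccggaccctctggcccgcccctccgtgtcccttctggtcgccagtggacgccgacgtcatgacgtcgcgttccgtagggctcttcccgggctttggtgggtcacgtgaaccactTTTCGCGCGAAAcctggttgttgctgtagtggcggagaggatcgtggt
CCNA2: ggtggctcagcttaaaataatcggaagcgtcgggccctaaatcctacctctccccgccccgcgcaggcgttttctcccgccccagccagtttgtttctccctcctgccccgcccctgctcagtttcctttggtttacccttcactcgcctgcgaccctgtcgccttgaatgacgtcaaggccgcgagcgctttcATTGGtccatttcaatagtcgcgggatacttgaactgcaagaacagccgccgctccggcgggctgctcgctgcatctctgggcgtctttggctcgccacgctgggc
CCNB1: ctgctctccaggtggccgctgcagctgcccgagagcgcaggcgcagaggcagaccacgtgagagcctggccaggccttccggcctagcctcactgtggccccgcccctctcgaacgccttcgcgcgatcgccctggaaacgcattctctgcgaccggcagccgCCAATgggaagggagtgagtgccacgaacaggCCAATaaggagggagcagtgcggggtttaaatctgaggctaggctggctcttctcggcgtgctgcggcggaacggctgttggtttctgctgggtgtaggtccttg
PLK1: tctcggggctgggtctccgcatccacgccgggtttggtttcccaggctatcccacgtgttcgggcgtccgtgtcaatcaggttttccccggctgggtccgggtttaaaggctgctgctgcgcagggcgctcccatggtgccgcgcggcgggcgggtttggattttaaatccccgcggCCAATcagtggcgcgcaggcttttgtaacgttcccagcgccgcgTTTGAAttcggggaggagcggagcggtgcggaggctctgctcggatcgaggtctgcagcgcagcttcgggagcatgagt
CDKN1A: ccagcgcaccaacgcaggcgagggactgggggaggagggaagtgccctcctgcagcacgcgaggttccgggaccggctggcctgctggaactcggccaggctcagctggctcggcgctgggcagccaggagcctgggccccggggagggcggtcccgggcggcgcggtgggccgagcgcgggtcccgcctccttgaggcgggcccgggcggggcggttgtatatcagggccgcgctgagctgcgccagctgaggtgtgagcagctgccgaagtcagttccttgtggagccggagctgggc
The E2F1 window (chr20:33686336-33686635, minus strand) held 2 E2F matches and 3 CCAAT boxes. The MCM2 window (chr3:127598161-127598460, plus strand) held 2 E2F matches, which overlap as the same stretch read on both strands. The PLK1 window (chr16:23678639-23678938, plus strand) held 1 CHR and 1 CCAAT box. The E2F7 window (chr12:77065520-77065819, minus strand) held 4 CCAAT boxes, the CCNB1 window (chr5:69166900-69167199, plus strand) 2 and the CCNA2 window (chr4:121823834-121824133, minus strand) 1. The CDKN1A window (chr6:36678464-36678763, plus strand) held none of the motifs in these letters. A match is a run of letters and not evidence that a factor binds there.

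Library totals were 7.652 to 39.944 M counts, lowest in the E2 group (7.652 to 15.755 M). ESR2 stood at 28.6 to 63.5 RPKM in all 12 libraries. Of the markers of mesenchymal breast lines, 5 of 6 were listed, with VIM at 324 to 520 RPKM, and of the luminal markers 5 of 9, with GATA3 at 1.1 to 4.35 RPKM. The summed level of these 5 (KRT19, CDH1, EPCAM, ERBB2 and GATA3) was 204 to 243 RPKM in vehicle, 197 to 232 in TNFα, 1410 to 2150 in E2 and 1350 to 1680 in E2+ TNFα, most of it KRT19. Of the 5, KRT19 and CDH1 rose past the thresholds given below with E2 relative to vehicle (3.20 and 3.71 on the log2 scale) and in E2+ TNFα relative to TNFα (2.97 and 4.41) and GATA3 fell in both (-0.71 and -1.20), EPCAM rose in the latter (0.61), and their part in the members' values was not tested. CD14, the listed leukocyte marker, stood at 0.308 to 1.05 RPKM. The 3 vehicle libraries stood apart from the other 9: the first principal component of all genes (68.7% of the variance) separated them, and in them genes of low GC content were high. The median of the quintile of genes with the highest exon GC content minus that of the lowest quintile, on a log2 scale relative to the mean library, was -1.53, -2.09 and -1.95 in the vehicle libraries and -0.0732 to 1.21 in the other 9. The labels give no batch, so a technical difference of the vehicle libraries and an effect of treatment cannot be told apart in any comparison with vehicle. On the same scale E2+ TNFα replicate 3 stood at 1.09 against 0.17 and -0.0732 in its group, and E2 replicate 2 at 1.21 against 0.427 and 0.423. In bulk RNA, fewer cells in a phase of the cycle and less RNA per cell cannot be told apart.

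The members followed this GC trend closely. Their exon GC content ran from 35.2% to 64.3%, with a median of 47.9% (49.9% over all genes tested). Across the 60 members, the log2 fold change of E2 relative to vehicle rank-correlated with GC content at 0.897 (0.655 over all genes), whereas in E2+ TNFα relative to TNFα the value was -0.344 (-0.21 over all genes) and in E2+ TNFα relative to E2 it was -0.711 (-0.331). These correlations are across genes that share libraries and are descriptions. Of the 20 members with the lowest GC content, 17 fell with E2 relative to vehicle and 0 rose, and of the 20 with the highest, 15 rose and 1 fell. Over all genes tested, 40.1% rose and 41.7% fell. Other genes of like GC content were not counted, so these numbers describe the trend and are not a result about the members. Values against vehicle are therefore also given after the trend of each library with GC content and gene length had been removed, which left a correlation of 0.465 across the members.

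**Figure D1:**
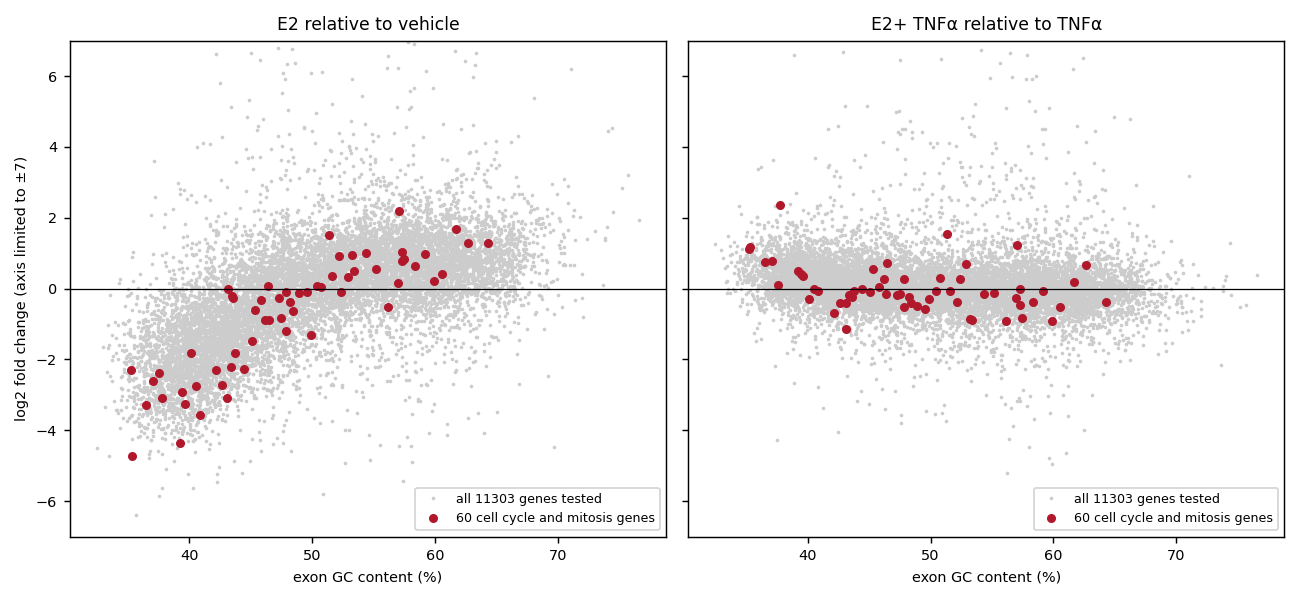
Log2 fold change (vertical axis, limited in range) against exon GC content in percent (horizontal axis), for E2 relative to vehicle (left) and E2+ TNFα relative to TNFα (right), with all 11303 genes tested as grey dots and the 60 members as red dots. On the left the members climb with GC content (rank correlation 0.897), and on the right the relation is weaker and of the opposite sign (-0.344), with a median of -0.32 for the 20 members of highest GC content.

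The members took 0.627% to 0.739% of each library's counts. Their median level was 26.9 RPKM in vehicle, 14.4 in TNFα, 14.5 in E2 and 15.5 in E2+ TNFα. In vehicle the highest was CDC20 (161 ± 11.5 RPKM, SD, n = 3) and the lowest E2F2 (1.64 ± 0.118). In the other groups CDKN1A was the highest, at 257 ± 21.0, 588 ± 96.4 and 599 ± 58.6 RPKM in TNFα, E2 and E2+ TNFα, and TTK, PLK4, CENPE and CCNE2 lay under 1 RPKM. Counts of members with near-identical copies elsewhere in the genome are uncertain. At least 200 bases of exon at 90% identity or more were found elsewhere for AURKA, CCNB2, CDC20, CDK6, MAD2L1, MKI67, PCNA, PTTG1, RRM1 and RRM2.

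**Figure D2:**
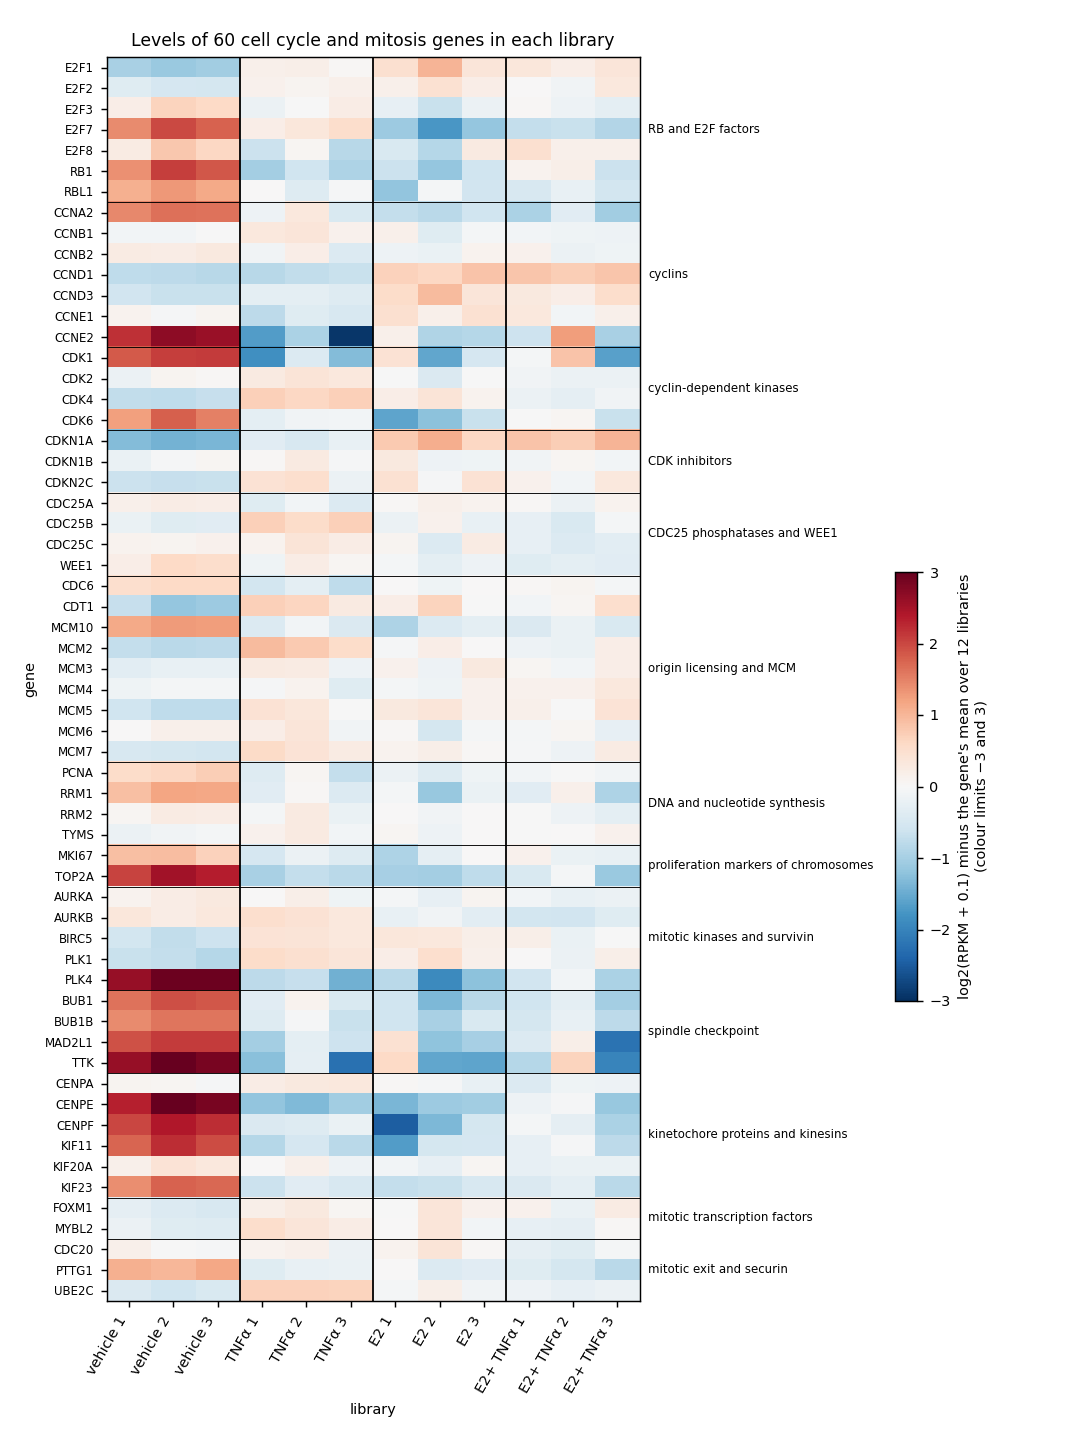
Level of each of the 60 members (down the side, by role) in each of the 12 libraries (along the bottom, by group), as log2(RPKM + 0.1) minus the gene's mean over the libraries, with red above and blue below that mean and colours limited at -3 and 3. The 3 vehicle libraries differ from the other 9 for many members, while CCND1, CCND3 and CDKN1A are higher in the 6 libraries with E2 than in the 6 without.

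E2+ TNFα relative to TNFα asks what E2 does in the presence of TNFα and has no vehicle library in the contrast. The filter, the scaling and the estimate of spread still came from all 12 libraries. With only the compared groups fitted, 56 members were tested, and CCNE2 and CENPE were not among them. Cyclin D1 and the CDK inhibitor CDKN1A rose, with CCND3, CCNE1, CDC6 and RB1, and the repressor E2F7 fell, with CDK4, MCM2, AURKB, UBE2C and CDC25B. Of the 60 members, 11 rose and 17 fell at an adjusted p of at most 0.1 (edgeR quasi-likelihood test, Benjamini-Hochberg over 11303 genes), against 24.4% of all genes higher and 21.0% lower. Past the thresholds of the study (a log2 change of at least 1.5, p under 0.05 and adjusted p at most 0.1) were 2 members higher (3.55% of all genes) and 0 lower (2.01%). At an unadjusted p under 0.05 it was 12 higher and 17 lower. The members' median log2 change was -0.10, against 0.04 over all genes. The 3 libraries of a group lay all above those of the other for 8 members (23.7% of all genes) and all below for 17 (23.1%). With the GC and length trends removed, all 28 calls kept their direction and 39 members were called, 12 higher and 27 lower, against 27.2% and 32.9% of all genes.

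**Figure D3:**
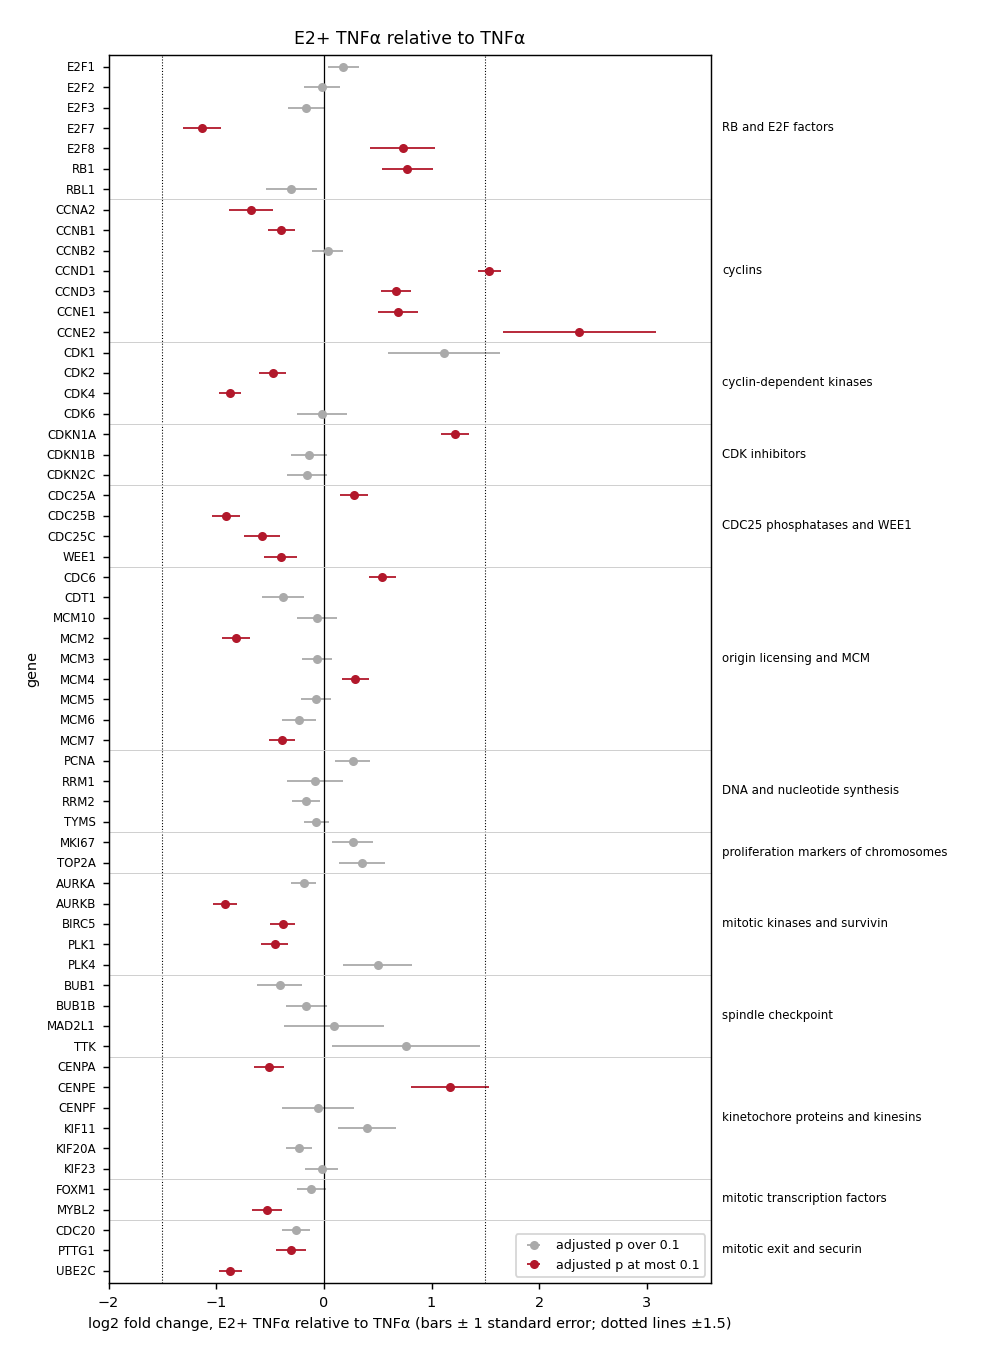
Log2 fold change of E2+ TNFα relative to TNFα (horizontal axis, bars of 1 standard error) for the 60 members in order of role, with an adjusted p of at most 0.1 in red and others in grey. CCND1 at 1.54 and CDKN1A at 1.22 lie to the right with narrow bars, CCNE2 at 2.37 has a wide one, and E2F7 at -1.14 is the farthest to the left.

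E2 relative to vehicle asks what the ligand does alone. CDKN1A, E2F1 and CCND1 rose past the thresholds, while 18 members fell past them, among them PLK4, CENPE, CENPF, TOP2A, E2F7 and CCNA2. In all, 17 members rose (40.1% of all genes) and 30 fell (41.7%), with 3 past the thresholds upward (9.87%) and 18 downward (20.6%), and a median log2 change of -0.27 (-0.02 over all genes). With the trends removed, 14 rose and 36 fell (38.9% and 38.3% of all genes), and 0 were past the thresholds upward (7.35%) and 4 downward (6.59%), namely PLK4, CENPE, PTTG1 and E2F7. Of these, PLK4 and CENPE entered the test only through the vehicle libraries, which favoured their fall. With an unwanted factor taken from 24 housekeeping genes, 5 rose and 4 fell (9.78% and 9.14% of all genes), and with library size as the only scaling 13 rose and 40 fell (30.1% and 51.8%) while the median of all genes moved to -0.38. The housekeeping genes behind the factor themselves differed from vehicle with E2, 15 higher and 3 lower with a median of 0.40. How much of a treatment difference the factor takes out was not tested. Of the 47 calls, 4 were made in the same direction under every alternative, namely AURKB, CCND1, CDKN1A and E2F7.

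TNFα relative to vehicle asks what 3 h of the cytokine do without E2. MCM2 and CDT1 rose past the thresholds, and 16 members fell past them, among them CENPE, CCNE2, PLK4 and TTK. In all, 20 members rose (40.3% of all genes) and 30 fell (41.6%), with 2 past the thresholds upward (6.64%) and 16 downward (20.0%), and a median of -0.23 (0.01 over all genes). With the trends removed, 20 rose and 29 fell (39.3% and 36.7% of all genes), with 0 and 5 past the thresholds (4.86% and 5.62%), and with the unwanted factor 7 rose and 3 fell (7.6% and 9.95%). The calls made in the same direction under every alternative were CDK4, KIF23, MCM2, TOP2A and UBE2C, and CENPE was called in every alternative that tested it. CENPE was not tested where at least 10 counts were required in every library. It also failed the filter in each fit that left out a vehicle library. CENPE, PLK4 and CCNE2 entered the test only through the vehicle libraries, which favoured their fall.

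E2+ TNFα relative to vehicle combines both. CDKN1A and CCND1 rose past the thresholds and 19 members fell past them. In all, 17 rose (39.1% of all genes) and 33 fell (41.5%), with 2 past the thresholds upward (7.52%) and 19 downward (17.6%), and a median of -0.33 (-0.03 over all genes). With the trends removed, 9 rose and 32 fell (36.9% and 39.1% of all genes), with 1 and 5 past the thresholds (5.79% and 5.07%), and with the unwanted factor 4 rose and 8 fell (11.8% and 11.4%). Those called in the same direction under every alternative were AURKB, CCND1, CDKN1A, E2F7, KIF23, PTTG1 and TOP2A. The 3 comparisons with vehicle share the vehicle libraries, so their likeness is not a result.

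E2+ TNFα relative to E2 asks what TNFα does in the presence of E2 and likewise has no vehicle library in the contrast. CDK6 rose and CDK4 fell, at 1.00 and -0.42 or 0.49 and -0.24 with the trends removed, where both were still called, and 0 members passed the thresholds in either direction. At an unadjusted p under 0.05 (edgeR), 6 members were higher and 8 lower. With the unwanted factor 0 members were called higher and 5 lower (5.81% and 5.64% of all genes), and 2 passed the thresholds downward (0.434%). Neither CDK6 nor CDK4 was called with that factor, and the replicate block kept 1 of the 2 calls. Over all genes, 2.65% rose and 3.34% fell, with 0.389% past the thresholds upward and 0.0177% downward. DESeq2 called 4 members higher and 4 lower (4.54% and 7.38% of all genes), and neither edgeR call was made when only the 6 libraries compared were fitted. Without E2+ TNFα replicate 3 the number called was 11, against 7.86% of all genes higher and 6.6% lower. Without E2 replicate 3 it was 9 (6.45% and 8.26%), and without E2 replicate 2 it was 2 (1.84% and 2.69%). Without E2 replicate 1, or without E2+ TNFα replicate 1 or 2, it was 0 (0.842% and 0.434%, 1.54% and 1.95%, and 0.976% and 0.142%).

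The interaction of E2 and TNFα, that is the E2 effect with TNFα minus the E2 effect without it, was higher for 26 members (39.0% of all genes) and lower for 23 (37.6%), with 19 (22.5%) and 4 (9.29%) past the thresholds. It contains the vehicle libraries, and it rank-correlated with GC content at -0.898 across the members. With the trends removed, 27 were higher and 15 lower (31.6% and 35.9% of all genes), with 3 and 0 past the thresholds (7.23% and 6.33%), and with the unwanted factor 0 were higher and 3 lower (5.85% and 4.66%). E2 relative to vehicle and E2+ TNFα relative to TNFα have no library in common. In both, CCND1, CCND3 and CDKN1A rose and AURKB, CCNA2, E2F7, PTTG1 and WEE1 fell, while 12 members were called in opposite directions. These 12 were BIRC5, CCNE2, CDC6, CDK4, CENPE, E2F8, MCM2, MCM7, MYBL2, PLK1, RB1 and UBE2C. Of these, CDK4 (0.96) and UBE2C (0.51) rose and CDC6 (-0.60) fell with E2 relative to vehicle, and UBE2C turned to -0.34 with the trends removed. Of all genes, 12.7% rose in both comparisons, 8.16% fell in both and 15.6% were opposite. With the trends removed, 4 members rose in both, 18 fell in both and 13 were opposite, against 15.6%, 16.4% and 16.2% of all genes.

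**Figure D4:**
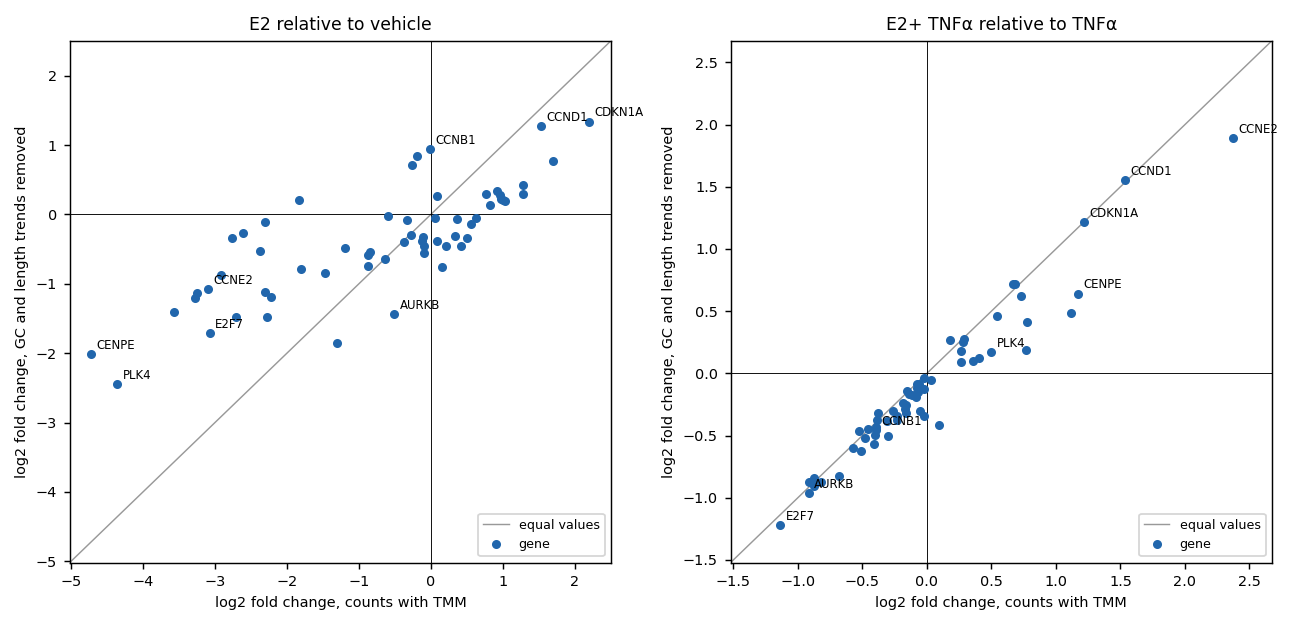
Log2 fold change of each of the 60 members with the GC and length trends removed (vertical axis) against the value without that step (horizontal axis), for E2 relative to vehicle (left) and E2+ TNFα relative to TNFα (right), with the grey line marking equal values. On the left PLK4 moves from -4.36 to -2.45 and CCNB1 from -0.01 to 0.94, while on the right CCND1 (1.54 and 1.55) and E2F7 (-1.14 and -1.22) stay near the line.

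Among the cyclins, CCND1 (cyclin D1, the partner of CDK4 and CDK6 in G1; chromosome 11, 69641105 to 69654474, hg38) was at 67.4, 66.5 and 63.6 RPKM in vehicle, 64.4, 68.6 and 72.3 in TNFα, 184, 177 and 208 in E2 and 204, 189 and 202 in E2+ TNFα. All 6 libraries with E2 lay above all 6 without it. It rose by 1.54 (SE 0.11, adjusted p = 2.56e-08) on the log2 scale in E2+ TNFα relative to TNFα and by 1.52 (SE 0.11, adjusted p = 1.01e-08) with E2 relative to vehicle, or 1.27 with the trends removed. Between TNFα and vehicle the value was 0.06 (adjusted p = 0.632), and -0.20 with the trends removed, which then passed the test. A stretch of 23.3% of the CCND1 exon length overlaps LTO1 on the opposite strand in the table, and whether the counting used strand is not stated, so reads there are uncertain.

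CCND3 (cyclin D3, of the same family) was at 52.4, 49.1 and 49.1 RPKM in vehicle, 63.9, 63.5 and 60.2 in TNFα, 115, 152 and 100.3 in E2 and 96.05, 90.1 and 112 in E2+ TNFα. Its libraries with E2 also lay above those without, and it rose by 0.67 (SE 0.14, adjusted p = 0.00156) in E2+ TNFα relative to TNFα. With E2 relative to vehicle CCND3 rose by 1.29, or 0.42 with the trends removed. CCNE1 (cyclin E1, partner of CDK2 at the start of S phase) was at 5.14, 4.67 and 5.11 RPKM in vehicle, 2.73, 3.73 and 3.40 in TNFα, 6.68, 5.38 and 6.58 in E2 and 5.98, 4.55 and 5.37 in E2+ TNFα. It fell with TNFα relative to vehicle (-0.60, or -1.11 with the trends removed) and rose in E2+ TNFα relative to TNFα by 0.69 (SE 0.19, adjusted p = 0.00932), with no overlap of the groups in either comparison.

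CCNE2 (cyclin E2) rested on few reads, at 13, 28 and 0 counts in TNFα, 34, 6 and 11 in E2 and 20, 154 and 30 in E2+ TNFα, against 435, 630 and 637 in vehicle. The 0 allows up to 3 counts by counting error alone. On the RPKM scale it was at 3.34, 4.70 and 4.42 RPKM in vehicle, 0.136, 0.290 and 0 in TNFα, 0.738, 0.303 and 0.315 in E2 and 0.392, 1.71 and 0.285 in E2+ TNFα. It passed the thresholds in E2+ TNFα relative to TNFα at 2.37 (SE 0.71, adjusted p = 0.0167), but the groups overlapped and the value rested on E2+ TNFα replicate 2, without which it was 1.07 (adjusted p = 0.235). Relative to vehicle it fell by 3.10 with E2, against -1.08 with the trends removed and a rise of 3.73 with the unwanted factor.

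CCNA2 (cyclin A2, of S phase and G2) was at 26.3, 30.7 and 30.0 RPKM in vehicle, 8.65, 12.02 and 6.93 in TNFα, 5.84, 5.42 and 6.30 in E2 and 4.97, 7.603 and 4.65 in E2+ TNFα. Vehicle lay far above the other groups, and the TNFα and E2+ TNFα libraries overlapped. It fell by 2.30 with E2 relative to vehicle (-1.11 with the trends removed) and fell by 0.68 (SE 0.20, adjusted p = 0.0168) in E2+ TNFα relative to TNFα. CCNB1 (cyclin B1, the mitotic partner of CDK1) was at 88.2, 87.1 and 91.8 RPKM in vehicle, 116, 119 and 101 in TNFα, 103, 72.4 and 89.4 in E2 and 87.5, 85.4 and 83.1 in E2+ TNFα. It fell in E2+ TNFα relative to TNFα (-0.40, adjusted p = 0.0207), with no overlap, whereas with E2 relative to vehicle it was at -0.01 and, with the trends removed, at 0.94. CCNB2 was at 0.03 log2 between E2+ TNFα and TNFα, with overlapping groups. The exons of CCNA2 and CCNE2 overlap EXOSC9 and INTS8 on the opposite strand over 9.08% and 8.56% of their length in the count table. In the GENCODE v44 gene annotation INTS8 overlaps 48.3% of CCNE2. Of the 7 cyclins, 4 rose and 2 fell in E2+ TNFα relative to TNFα, against 24.4% of all genes higher and 21.0% lower.

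**Figure D5:**
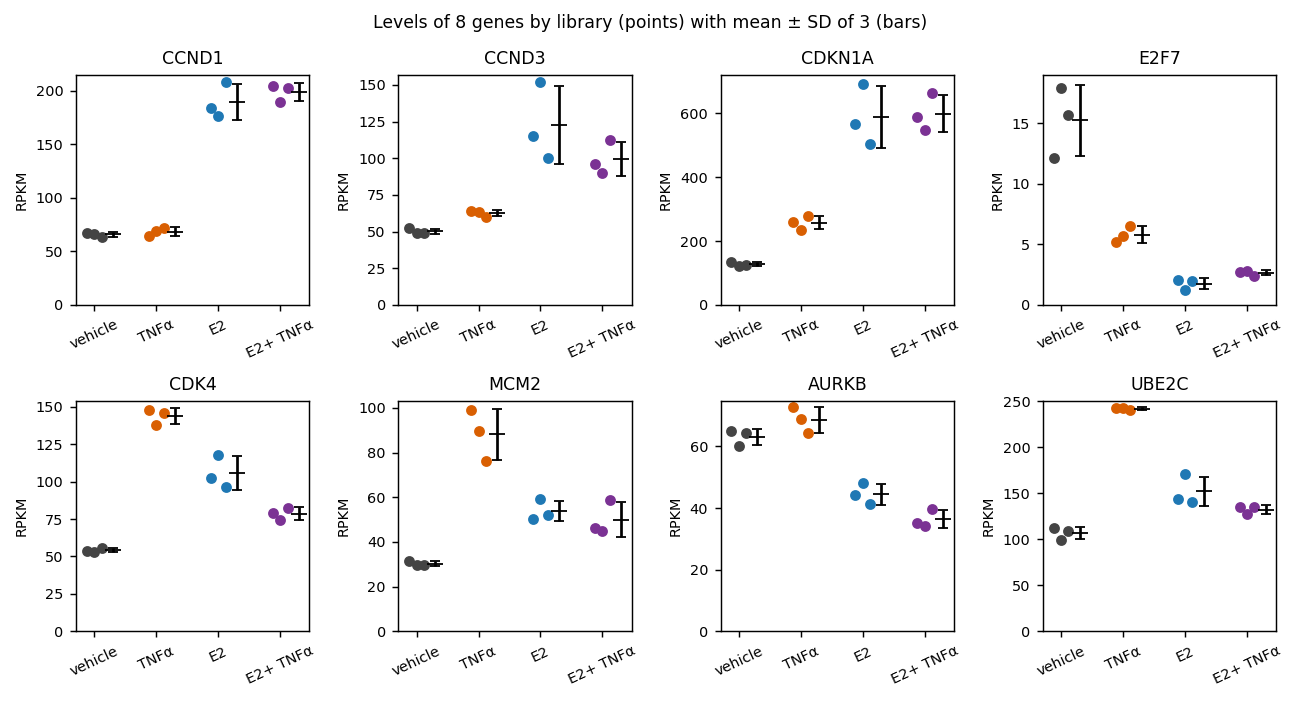
RPKM (vertical axis, from 0) of CCND1, CCND3, CDKN1A, E2F7, CDK4, MCM2, AURKB and UBE2C in each library by group (horizontal axis), with points for libraries and bars for the mean ± SD of 3. CCND1, CCND3 and CDKN1A are highest in the E2 and E2+ TNFα groups, and CDK4, MCM2 and UBE2C are highest in TNFα.

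Among the kinases that the cyclins activate, CDK4 was at 54.0, 52.9 and 55.8 RPKM in vehicle, 148, 138 and 146 in TNFα, 103, 118 and 96.2 in E2 and 78.8, 74.5 and 82.7 in E2+ TNFα. The 4 groups did not overlap, with TNFα the highest and vehicle the lowest. It fell by 0.87 (SE 0.11, adjusted p = 1.13e-05) in E2+ TNFα relative to TNFα, and rose with TNFα relative to vehicle by 1.41 (0.87 with the trends removed). In E2+ TNFα relative to E2 it fell by 0.42 (SE 0.11, adjusted p = 0.0474), a call lost in 3 of the 6 leave-one-out fits. A stretch of 25.8% of its exon length overlaps TSPAN31 on the opposite strand in the count table, and 53.8% in GENCODE v44.

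CDK6, which shares the D cyclins with CDK4, was at 5.67, 8.37 and 6.85 RPKM in vehicle, 1.90, 2.17 and 2.22 in TNFα, 0.711, 0.947 and 1.44 in E2 and 2.33, 2.44 and 1.44 in E2+ TNFα. Vehicle was the highest group, and E2 and E2+ TNFα overlapped. It fell by 1.73 with TNFα relative to vehicle, which turned to 0.49 with the trends removed, and in E2+ TNFα relative to E2 it rose by 1.00 (SE 0.25, adjusted p = 0.0467), a call lost in 4 of the 6 leave-one-out fits.

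CDK2, the partner of cyclins E and A, was at 43.3, 47.0 and 45.0 RPKM in TNFα and 33.3, 31.8 and 32.1 in E2+ TNFα, with no overlap, and fell by 0.48 (SE 0.12, adjusted p = 0.00734). CDK1, which drives entry into mitosis, was at 23.0, 26.8 and 27.7 RPKM in vehicle, 1.69, 4.79 and 2.53 in TNFα, 8.55, 2.101 and 4.45 in E2 and 6.04, 11.5 and 1.99 in E2+ TNFα. The vehicle libraries lay above all others, and the other 3 groups overlapped with a wide spread. It fell by 2.31 with E2 relative to vehicle, against -0.11 with the trends removed and 3.87 with the unwanted factor. In E2+ TNFα relative to TNFα its value was 1.11 with an SE of 0.52 (adjusted p = 0.107), and without E2+ TNFα replicate 3 it passed the thresholds.

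Of the CDK inhibitors, CDKN1A (p21, a p53 target that binds cyclin-CDK complexes and PCNA; chromosome 6, 36676460 to 36687339, hg38) was at 133, 123 and 127 RPKM in vehicle, 258, 236 and 278 in TNFα, 568, 693 and 503 in E2 and 587, 547 and 662 in E2+ TNFα. TNFα lay above vehicle, and both groups with E2 lay above TNFα with no overlap. It rose by 1.22 (SE 0.13, adjusted p = 3.41e-06) in E2+ TNFα relative to TNFα and by 2.20 (SE 0.14, adjusted p = 3.25e-09) with E2 relative to vehicle (1.34 with the trends removed). Between E2+ TNFα and E2 it was 0.03 with an SE of 0.13, and the groups overlapped. CDKN1B (p27) was at 4.73 to 6.70 RPKM over the 12 libraries and passed in none of the pairwise comparisons. CDKN2C (p18, an inhibitor of CDK4 and CDK6) was at 6.43, 6.26 and 6.32 RPKM in vehicle, 13.7, 14.5 and 9.05 in TNFα, 14.0, 9.98 and 13.8 in E2 and 11.2, 9.57 and 12.8 in E2+ TNFα. It rose in each group relative to vehicle (1.00, 0.97 and 0.82 with E2, TNFα and E2+ TNFα), and with the trends removed these were 0.21, 0.32 and 0.18.

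In the RB and E2F group, E2F7 (an atypical E2F that represses E2F targets; chromosome 12, 77021246 to 77065580, hg38) was at 12.2, 18.0 and 15.7 RPKM in vehicle, 5.20, 5.73 and 6.53 in TNFα, 2.08, 1.27 and 1.97 in E2 and 2.70, 2.82 and 2.42 in E2+ TNFα. The groups did not overlap, in the order vehicle, TNFα, E2+ TNFα and E2 from high to low. It fell by 1.14 (SE 0.18, adjusted p = 0.000138) in E2+ TNFα relative to TNFα and fell by 3.08 (SE 0.19, adjusted p = 4.22e-09) with E2 relative to vehicle (-1.72 with the trends removed). E2F8, the related repressor, rose in E2+ TNFα relative to TNFα by 0.73 (adjusted p = 0.0677), a call lost in 3 of the 6 leave-one-out fits.

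E2F1, an activator of S phase genes, was at 35.6, 32.4 and 33.6 RPKM in vehicle, 77.6, 78.3 and 71.6 in TNFα, 98.1, 141 and 89.9 in E2 and 88.3, 79.7 and 89.9 in E2+ TNFα. All 9 libraries of the other groups lay above vehicle. It rose with E2 relative to vehicle by 1.69 (SE 0.15, adjusted p = 7.98e-08), or 0.77 with the trends removed, and between E2+ TNFα and TNFα it was 0.18 (adjusted p = 0.342). RB1, which holds E2F factors back, was at 10.8, 17.8 and 15.2 RPKM in vehicle, 1.98, 2.70 and 2.12 in TNFα, 2.59, 1.80 and 2.68 in E2 and 4.44, 4.64 and 2.62 in E2+ TNFα. Vehicle was far above the other groups, and TNFα and E2+ TNFα overlapped. It fell by 2.61 with E2 relative to vehicle and stood at -0.27 with the trends removed, and it rose by 0.78 (SE 0.24, adjusted p = 0.018) in E2+ TNFα relative to TNFα. E2F2, E2F3 and RBL1 passed in each comparison with vehicle and in neither of those without it. RBL1 turned, with the trends removed, from -1.35 to 0.56 with TNFα relative to vehicle, which also passed, and stood at 0.21 with E2 and 0.06 with both.

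WEE1, a kinase that holds CDK1 inactive before mitosis, was at 5.25, 6.91 and 6.59 RPKM in vehicle, 4.12, 5.34 and 4.73 in TNFα, 4.35, 3.66 and 4.05 in E2 and 3.51, 3.69 and 3.54 in E2+ TNFα. E2+ TNFα lay under TNFα with no overlap, and WEE1 fell by 0.40 (SE 0.15, adjusted p = 0.0521), a call lost in 3 of the 6 leave-one-out fits. CDC25A, a phosphatase that removes the inhibitory phosphate from CDKs, was at 10.1, 10.55 and 10.48 RPKM in vehicle, 6.97, 8.53 and 6.75 in TNFα, 9.28, 10.1 and 9.77 in E2 and 9.27, 8.04 and 9.71 in E2+ TNFα. It rose in E2+ TNFα relative to TNFα by 0.28 (SE 0.13, adjusted p = 0.0967), although the groups overlapped and the call was lost in 4 of the 6 leave-one-out fits. CDC25B, of the same family, was at 43.02, 38.7 and 42.99 RPKM in TNFα and 21.9, 19.1 and 25.3 in E2+ TNFα, and it fell by 0.91 (SE 0.13, adjusted p = 5.58e-05). CDC25C fell by 0.57. Of these 4 genes, 3 fell and 1 rose in that comparison, against 21.0% of all genes lower and 24.4% higher.

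MCM2 to MCM7 form the replicative helicase, which CDC6 and CDT1 load onto origins. MCM2 was at 31.5, 29.5 and 29.8 RPKM in vehicle, 98.9, 89.4 and 76.2 in TNFα, 50.4, 59.1 and 51.9 in E2 and 46.2, 44.7 and 58.9 in E2+ TNFα. TNFα was the highest group and vehicle the lowest, with no overlap between either and the rest. MCM2 fell by 0.82 (SE 0.13, adjusted p = 0.000177) in E2+ TNFα relative to TNFα and rose by 1.54 (SE 0.13, adjusted p = 1.26e-07) with TNFα relative to vehicle (0.98 with the trends removed). In GENCODE v44 a gene without a symbol on the opposite strand overlaps 31.7% of its exon length. MCM5 was at 29.0, 25.8 and 26.0 RPKM in vehicle, 59.2, 55.5 and 43.4 in TNFα, 53.7, 56.7 and 47.9 in E2 and 48.8, 43.7 and 57.8 in E2+ TNFα. It rose in each group relative to vehicle (0.97, 0.97 and 0.90 with E2, TNFα and both, or 0.23, 0.32 and 0.24 with the trends removed) and was at -0.07 between E2+ TNFα and TNFα, with overlap.

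CDC6 was at 11.3, 13.7 and 9.92 RPKM in TNFα and 17.1, 17.7 and 16.2 in E2+ TNFα, with no overlap, and it rose by 0.54 (SE 0.12, adjusted p = 0.00325). MCM7, which overlaps AP4M1 on the opposite strand over 11.3% of its exon length, fell (-0.39, a call lost without TNFα replicate 1), and MCM4 rose (0.29, adjusted p = 0.0837), a call lost in 5 of the 6 leave-one-out fits. Of the 9 licensing genes, 2 rose, 2 fell and 5 did not pass in E2+ TNFα relative to TNFα (24.4% of all genes rose and 21.0% fell). CDT1 rose past the thresholds with TNFα relative to vehicle (1.53, or 0.53 with the trends removed), and MCM10, an initiation factor, fell in each group relative to vehicle (-1.81, -1.56 and -1.63 with E2, TNFα and both, or -0.79, -0.59 and -0.74 with the trends removed).

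RRM2, the regulated subunit of ribonucleotide reductase, was at 48.8, 55.9 and 54.6 RPKM in vehicle, 45.1, 56.0 and 40.7 in TNFα, 47.5, 43.6 and 47.5 in E2 and 46.2, 41.8 and 38.2 in E2+ TNFα. The TNFα, E2 and E2+ TNFα groups overlapped with one another. With E2 relative to vehicle it was at -0.20 (adjusted p = 0.164), and with the trends removed at 0.84. TYMS, which makes thymidylate, was at 33.5, 35.4 and 36.6 RPKM in vehicle, 41.6, 45.5 and 36.1 in TNFα, 39.5, 34.2 and 38.1 in E2 and 37.5, 38.3 and 41.5 in E2+ TNFα. With TNFα relative to vehicle it rose by 0.23 and stood at -0.06 with the trends removed, and in E2+ TNFα relative to TNFα it was at -0.07. TYMS shares 56.1% of its exon length with ENOSF1 on the opposite strand. PCNA, the sliding clamp, and RRM1 fell in each group relative to vehicle, with the trends removed as well. With the unwanted factor RRM1 turned to 1.72, 1.12 and 0.97 with E2, TNFα and both, each of which passed in the opposite direction. In E2+ TNFα relative to TNFα 0 of the 4 DNA synthesis genes passed, also 0 at an unadjusted p under 0.05 (edgeR). Over all genes, 24.4% rose and 21.0% fell there at an adjusted p of at most 0.1.

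MKI67, the gene of the Ki-67 proliferation marker, was at 27.9, 28.3 and 24.1 RPKM in vehicle, 10.4, 13.1 and 11.4 in TNFα, 7.77, 12.4 and 14.9 in E2 and 16.3, 12.9 and 12.8 in E2+ TNFα. TOP2A, the topoisomerase that untangles chromosomes, was at 35.9, 51.0 and 45.5 RPKM in vehicle, 4.41, 5.33 and 4.96 in TNFα, 4.36, 4.32 and 5.17 in E2 and 6.33, 8.46 and 4.003 in E2+ TNFα. For both, every vehicle library lay above all 9 others, and the other 3 groups overlapped. With E2 relative to vehicle MKI67 fell by 1.20 (SE 0.19, adjusted p = 3.6e-05) and TOP2A fell by 3.25 (SE 0.23, adjusted p = 1.14e-08), or -0.49 and -1.13 with the trends removed. In E2+ TNFα relative to TNFα they were at 0.27 (adjusted p = 0.284) and 0.35 (adjusted p = 0.204).

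Among the mitotic kinases, AURKA, of the spindle poles, was at 78.8, 86.1 and 90.7 RPKM in vehicle, 74.3, 83.4 and 67.5 in TNFα, 71.1, 62.2 and 77.3 in E2 and 69.7, 63.3 and 65.0 in E2+ TNFα. It fell by 0.28 with E2 relative to vehicle (-0.29 with the trends removed, and 0.11 with the unwanted factor) and was at -0.19 between E2+ TNFα and TNFα, with overlap. PLK1, which acts from entry into mitosis to cytokinesis, was at 38.8, 37.1 and 33.7 RPKM in vehicle, 90.7, 85.4 and 78.9 in TNFα, 70.3, 86.5 and 68.3 in E2 and 61.5, 54.2 and 69.7 in E2+ TNFα. Vehicle was the lowest group. PLK1 rose with E2 relative to vehicle by 1.04 (0.19 with the trends removed). PLK1 fell by 0.46 (SE 0.13, adjusted p = 0.0103) in E2+ TNFα relative to TNFα, with no overlap.

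AURKB, the kinase of the chromosomal passenger complex, was at 64.9, 60.2 and 64.3 RPKM in vehicle, 72.7, 69.0 and 64.4 in TNFα, 44.1, 48.1 and 41.3 in E2 and 35.2, 34.3 and 39.7 in E2+ TNFα. All 6 libraries with E2 lay under all 6 without it. AURKB fell by 0.92 (SE 0.11, adjusted p = 1.11e-05) in E2+ TNFα relative to TNFα and fell by 0.51 (SE 0.11, adjusted p = 0.00065) with E2 relative to vehicle (-1.44 with the trends removed). BIRC5 (survivin), of the same complex, was at 45.6, 40.4 and 43.9 RPKM in vehicle, 89.2, 88.4 and 84.4 in TNFα, 85.5, 83.8 and 76.0 in E2 and 75.4, 58.1 and 67.3 in E2+ TNFα. It rose with E2 relative to vehicle (0.92, or 0.33 with the trends removed) and fell in E2+ TNFα relative to TNFα (-0.38), with no overlap in either.

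PLK4, the kinase of centriole duplication, was at 5.95, 7.49 and 7.44 RPKM in vehicle, 0.470, 0.506 and 0.260 in TNFα, 0.462, 0.160 and 0.317 in E2 and 0.557, 0.823 and 0.405 in E2+ TNFα. It fell by 4.36 (SE 0.35, adjusted p = 3.98e-08) with E2 relative to vehicle (-2.45 with the trends removed), and outside vehicle it rested on 4 to 94 counts per library, with 0 libraries at 1 RPKM. Of the 5 genes of this group, 3 fell and 0 rose in E2+ TNFα relative to TNFα, against 21.0% of all genes lower and 24.4% higher.

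The 4 spindle checkpoint genes, which hold anaphase until chromosomes are attached, fell past the thresholds in each group relative to vehicle. Over all genes, 20.6%, 20.0% and 17.6% did so with E2, TNFα and both. All 4 are among the 20 members of lowest GC content, of which 17, 15 and 17 fell past the thresholds. In E2+ TNFα relative to TNFα 0 of 4 passed (24.4% of all genes rose and 21.0% fell), also 0 at an unadjusted p under 0.05 (edgeR). TTK (MPS1, the kinase that starts the signal) was at 8.29, 11.01 and 9.76 RPKM in vehicle, 0.479, 1.05 and 0.189 in TNFα, 1.99, 0.369 and 0.359 in E2 and 0.655, 2.096 and 0.248 in E2+ TNFα. It had 7 to 181 counts per library outside vehicle. With E2 relative to vehicle TTK fell by 3.28, or -1.21 with the trends removed, and turned to 4.35 with the unwanted factor. MAD2L1, which inhibits the anaphase-promoting complex, was at 38.3, 43.1 and 43.6 RPKM in vehicle, 4.92, 8.21 and 6.55 in TNFα, 13.9, 4.33 and 4.97 in E2 and 7.57, 11.4 and 2.08 in E2+ TNFα, with the 3 groups other than vehicle overlapping. Its change with E2 relative to vehicle was -2.38 (SE 0.48, adjusted p = 0.000332), -0.53 with the trends removed and 2.51 with the unwanted factor. BUB1 and BUB1B were at -2.71 and -2.22 with E2 relative to vehicle, or -1.48 and -1.20 with the trends removed.

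CENPE, a kinesin that moves chromosomes to the spindle equator, was at 2.77, 5.16 and 4.03 RPKM in vehicle, 0.149, 0.129 and 0.175 in TNFα, 0.119, 0.167 and 0.178 in E2 and 0.409, 0.459 and 0.160 in E2+ TNFα. It had 9 to 113 counts per library outside vehicle, with 0 libraries at 1 RPKM. CENPE fell by 4.72 (SE 0.39, adjusted p = 5.48e-08) with E2 relative to vehicle (-2.01 with the trends removed), and it rose by 1.17 (SE 0.36, adjusted p = 0.0188) in E2+ TNFα relative to TNFα, where the groups overlapped and the call was lost without E2+ TNFα replicate 2 (0.84, adjusted p = 0.121). CENPF, a kinetochore protein of G2 and mitosis, was at 13.2, 17.5 and 15.2 RPKM in vehicle, 2.36, 2.46 and 2.79 in TNFα, 0.501, 1.21 and 2.20 in E2 and 3.07, 2.67 and 1.61 in E2+ TNFα. It fell by 3.57 with E2 relative to vehicle (-1.41 with the trends removed) and did not pass in E2+ TNFα relative to TNFα (-0.06, adjusted p = 0.912).

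KIF11 and KIF23, motors of the spindle and of cytokinesis, fell in each group relative to vehicle, and with the trends removed KIF23 was at -1.48, -1.36 and -1.49 with E2, TNFα and E2+ TNFα. CENPA, the centromeric histone, fell in E2+ TNFα relative to TNFα (-0.51), with no overlap.

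FOXM1, a factor that switches on mitotic genes, was at 28.6, 26.4 and 24.7 RPKM in vehicle, 39.4, 42.3 and 36.4 in TNFα, 34.7, 44.5 and 38.2 in E2 and 37.7, 30.0 and 41.2 in E2+ TNFα. It rose with E2 relative to vehicle (0.56), which turned to -0.14 with the trends removed, and was at -0.12 between E2+ TNFα and TNFα, with overlap. In GENCODE v44, ITFG2 on the opposite strand overlaps 21.1% of FOXM1 exon length. MYBL2 (B-MYB), which works with the MuvB complex, was at 38.9, 34.3 and 33.7 RPKM in vehicle, 63.8, 56.3 and 51.5 in TNFα, 44.3, 56.8 and 41.8 in E2 and 37.4, 36.3 and 45.5 in E2+ TNFα. E2+ TNFα lay under TNFα with no overlap, and MYBL2 fell by 0.53 (SE 0.14, adjusted p = 0.00802). With E2 relative to vehicle it rose by 0.42, which turned to -0.45 with the trends removed.

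CDC20, an activator of the anaphase-promoting complex, was at 174, 155 and 153 RPKM in vehicle, 169, 173 and 139 in TNFα, 169, 204 and 161 in E2 and 129, 122 and 151 in E2+ TNFα. It did not pass in E2+ TNFα relative to TNFα (-0.26, adjusted p = 0.13), nor with E2 relative to vehicle (0.15), although the latter turned to -0.76 and passed with the trends removed. UBE2C, a ubiquitin-conjugating enzyme of that complex, was at 243, 242 and 241 RPKM in TNFα and 135, 127 and 135 in E2+ TNFα, and it fell by 0.87 (SE 0.11, adjusted p = 1.21e-05). PTTG1 (securin) lay higher in every vehicle library than in the other 9, and it fell by 1.30 with E2 relative to vehicle or -1.85 with the trends removed. PTTG1 fell by 0.31 (SE 0.14, adjusted p = 0.095) in E2+ TNFα relative to TNFα, a call lost in 5 of the 6 leave-one-out fits.

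Other genes of the cycle were taken from lists, which were also written with earlier results known. Of 31 other G1/S genes, 7 rose and 22 fell with E2 relative to vehicle, and 6 rose and 4 fell in E2+ TNFα relative to TNFα, with medians of -0.97 and 0.12. Of 32 other G2/M genes, 4 rose and 25 fell with E2 relative to vehicle, and 1 rose and 6 fell in E2+ TNFα relative to TNFα, with medians of -1.95 and 0.03. Of 19 p53 target genes tested (of 21 listed, CDKN1A not among them), 6 rose and 5 fell in E2+ TNFα relative to TNFα, with a median of -0.09. Of 24 housekeeping genes, 15 rose and 3 fell with E2 relative to vehicle, with a median of 0.40, and 6 rose and 8 fell in E2+ TNFα relative to TNFα, with a median of 0.08. Over all genes tested, 40.1% rose and 41.7% fell with E2 relative to vehicle. In E2+ TNFα relative to TNFα it was 24.4% and 21.0%. The list values are not given with the trends removed, and the part of the GC trend in those against vehicle was not tested.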

How the data were processed

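Stranded mRNA libraries (3 per group, 4 groups) were counted per gene by the authors, and the deposited values are raw counts with exon coordinates on hg38. The submitters' processing notes name TopHat2 2.1.0 and featureCounts, and whether the counting used strand is not given in the sources used here. The study's RUVseq correction is not in the deposited counts, and the batches and housekeeping genes behind it are not stated.

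Of 12567 entries, 46 exact repeats and 70 entries with the location of another symbol were removed. Genes with at least 1 RPKM (computed here from counts and exon length) in at least 3 libraries (11303 in all) entered edgeR (4.0.16, under R 4.3.3), whose quasi-likelihood model took TMM scaling, all 12 libraries in a single fit and Benjamini-Hochberg adjustment. Calls used an adjusted p of at most 0.1, and the thresholds of the study's methods add an absolute log2 change of at least 1.5 and p under 0.05. Library totals were 7.652 to 39.944 M counts, and the floor (3 counts) covers counting error only. P-values and standard errors come from the edgeR model and measure the spread between dishes of a single line. Alternatives were DESeq2 1.42.0, other filters and scalings, only the compared groups, a replicate block, loess trends (span 0.3) with GC content and length removed, an unwanted factor from 24 housekeeping genes (computed as in RUVg), and leaving out each library. Fits were tested on simulated data. Copies were searched with minimap2 2.31.

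The members and lists were chosen with earlier results of these data known. Named genes were a panel of 28 and up to 6 per comparison with the largest change past the thresholds whose groups did not overlap, and other members are named to complete their role. Replicate numbers did not pair samples: same-number libraries correlated at -0.482 to 0.467 in their deviations, over 0.1 in 5 of 18 pairs.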

Additional observations from a re-analysis of the deposited data

Results flagged for a closer look

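The effect of E2 differed with and without TNFα (interaction test, edgeR) past the thresholds for 23 members. All 23 values contain the vehicle libraries, which stood apart with GC content, and the part of that trend in them cannot be told apart from treatment. CENPE, PLK4 and CCNE2 entered the test only through the vehicle libraries, with 0, 0 and 1 library of the other groups at 1 RPKM, which favoured a high value for these 3. On the log2 scale, the effect with TNFα exceeded that without it for CENPE by 5.89, CCNE2 by 5.47, PLK4 by 4.86, TTK by 4.05, TOP2A by 3.61, CENPF by 3.51, CDK1 by 3.42, RB1 by 3.38 and KIF11 by 3.32. It did so for CDK6 by 2.74, MAD2L1 by 2.47, BUB1 by 2.30, KIF23 by 2.25, BUB1B by 2.06, E2F7 by 1.94, MCM10 by 1.74, CCNA2 by 1.62, E2F8 by 1.61 and RBL1 by 1.52. It was lower for CDK4 (-1.83), CDT1 (-1.66), MCM2 (-1.65) and E2F1 (-1.51). With the GC and length trends removed, CCNE2 (2.97), CENPE (2.65) and PLK4 (2.62) were past the thresholds. With the unwanted factor 1 member was, RRM1 at -1.87, which is not among the 23 and was at 1.39 without that step. None of the 23 was past the thresholds there.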

How the results depend on the processing

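Comparisons are named here by the first group relative to the second, and values are log2 changes unless said to be counts of members. With the GC and length trends removed, with or without the replicate block, 4, 5, 6 and 3 members were past the thresholds with E2, with TNFα and with both relative to vehicle and in the interaction, and 4 members were called in E2+ TNFα relative to E2 (2 with the block). With the unwanted factor, 6, 2 and 4 members were past the thresholds and 9, 10 and 12 called with E2, with TNFα and with both relative to vehicle, 2 and 5 in E2+ TNFα relative to E2, and 1 and 3 in the interaction. In E2+ TNFα relative to TNFα, 1 member was past the thresholds with at least 10 counts required in every library, and 1 with only the compared groups fitted. In E2+ TNFα relative to E2, DESeq2 called 8, only the compared groups 0 and the replicate block 1.

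Leaving out each library in turn gave 19 to 21, 14 to 18 and 18 to 22 members past the thresholds and 43 to 48, 43 to 50 and 46 to 48 called with E2, with TNFα and with both relative to vehicle. It gave 1 to 4 and 23 to 31 in E2+ TNFα relative to TNFα, 0 to 1 and 0 to 11 in E2+ TNFα relative to E2, and 20 to 26 and 40 to 48 in the interaction. Over all genes, the number called in E2+ TNFα relative to E2 ran from 126 to 1658. Without a vehicle library 58 members were tested, since CENPE and PLK4 then failed the filter. Without E2+ TNFα replicate 3, 4 members were past the thresholds in E2+ TNFα relative to TNFα (CCND1, CCNE2, CDK1 and CENPE), against 3 without TNFα replicate 2 and 1 without TNFα replicate 1 or E2+ TNFα replicate 1 or 2.

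With the replicate block, 47, 49, 47, 25, 1 and 45 members were called and 21, 18, 21, 2, 0 and 22 were past the thresholds, with E2, TNFα and both relative to vehicle, then with both against TNFα and against E2, and last in the interaction. The titles' numbers did not pair the samples, and 7 of 36 library and group combinations were highest with their own number.

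With the trends removed, the direction of 6, 6, 7 and 5 called members turned with E2, TNFα and both relative to vehicle and in the interaction, and of 16, 12, 12 and 16 with the unwanted factor. Values of the named genes that turned with the trends removed follow, with the replicate block added in brackets. With E2 relative to vehicle they were CCNB1 0.94 (0.94), RRM2 0.84 (0.84), TYMS -0.39 (-0.38), FOXM1 -0.14 (-0.14), MYBL2 -0.45 (-0.45) and CDC20 -0.76 (-0.76). With TNFα relative to vehicle they were CCND1 -0.20 (-0.20), CDK6 0.49 (0.49), RRM2 0.85 (0.84), TYMS -0.060 (-0.061) and MYBL2 -0.13 (-0.13). With E2+ TNFα relative to vehicle they were CCNB1 0.85 (0.85), CDK6 0.15 (0.15), RRM2 0.56 (0.56), TYMS -0.17 (-0.18), FOXM1 -0.15 (-0.14) and MYBL2 -0.60 (-0.60). In the interaction they were CDK6 -0.0033 (-0.0046), RRM2 -1.13 (-1.12), TYMS 0.27 (0.27) and CDC20 0.45 (0.46). Of the other members, those called in the opposite direction were UBE2C with E2 (-0.34) and with both (-0.32), CCND3 (-0.52) and RBL1 (0.56) with TNFα, and AURKB (0.48) and CCND3 (0.29) in the interaction.

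With library size only, TYMS (-0.27) and CDC20 (-0.22) turned with E2 relative to vehicle. With the unwanted factor, CCNE2 3.73, CDK1 3.87, WEE1 0.012, MCM2 -0.035, AURKA 0.11, FOXM1 -0.54, MYBL2 -0.68 TTK 4.35, MAD2L1 2.51 and RRM1 1.72 turned with E2 relative to vehicle, and CCNE2 0.57, CDK1 1.62, WEE1 0.083, FOXM1 -0.25, MYBL2 -0.13, TTK 1.87, MAD2L1 1.08 and RRM1 1.12 with TNFα. With E2+ TNFα relative to vehicle CCNE2 2.49, CDK1 2.48, RRM2 0.049, PLK1 -0.0081, FOXM1 -0.38, TTK 2.12, MAD2L1 0.93 and RRM1 0.97 turned. CDK1 turned to -1.39 in E2+ TNFα relative to E2. In the interaction CCNE2 -1.81, CCNA2 -0.32, CDK1 -3.01, CDKN1A 0.075, FOXM1 0.42, MYBL2 0.15, CDC20 0.44, TTK -4.095, BUB1 -0.022, MAD2L1 -2.66 and RRM1 -1.87 turned. Calls in the opposite direction there were CDK1, RRM1 and TTK with E2, RRM1 with TNFα, CDK1 and RRM1 with both, and RRM1 in the interaction. The cause was not tested.

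With 3 libraries a group, small changes and members with few reads (CCNE2, CENPE, PLK4 and TTK outside vehicle) could not be measured well.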
